A study of Saccharomyces cerevisiae with 22 samples.

Results

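Molecular chaperones of the Hsp70, Hsp90 and chaperonin families were followed in Saccharomyces cerevisiae grown at 5 levels of oxygen. The genes were taken by symbol from a list of 38, grouped as 13 genes of the cytosolic Hsp70 system, 9 genes of Hsp90 and its co-chaperones, the 8 subunits of the cytosolic chaperonin TRiC/CCT, 3 mitochondrial chaperone genes and 5 chaperone genes of the endoplasmic reticulum (ER). All 38 were measured, each by a probe set that is specific to 1 gene by its name, among 5449 genes tested. The cells were the haploid MATalpha strain CEN.PK113-1A, which needs no added amino acids or bases, kept in glucose-limited chemostats at a constant growth rate on medium that always contained ergosterol and Tween. The feed gas held no oxygen, 0.5 or 1.0%, 2.8%, or, with full aeration, 20.9%, the rest being nitrogen, and every sample was taken at steady state. There were 4 arrays at each level except 1.0%, which had 6, so that 22 arrays were used.

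Hsp70 proteins bind short stretches of unfolded protein and release them in a cycle driven by ATP. J-proteins deliver substrates and start hydrolysis of the ATP, and nucleotide exchange factors reset the cycle. Hsp90 acts later, on proteins that are nearly folded, with co-chaperones that hand over clients or set the speed of its ATPase. TRiC/CCT is a closed barrel that folds actin and tubulin among others, and mitochondria and the ER each have Hsp70 proteins and J-proteins of their own. In yeast, the heat shock factor Hsf1p drives many of the cytosolic genes, and several exist as a pair of paralogues of which one is made at all times and the other mainly under stress.

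The oxygen labels were checked on 6 genes known to be made without oxygen (DAN1, TIR1, AUS1, ANB1, COX5B and AAC3), each highest at 0%. DAN1, a cell wall mannoprotein gene, had a mean log2 level of 13.34 at 0% and between 4.28 and 4.92 at the other levels. CYC1, a gene of aerated cells, ran from 10.76 to 11.21 at 0%, from 13.04 to 13.39 at 0.5 to 2.8% and from 12.03 to 12.55 at 20.9%. COX5A, another such gene, was likewise lowest at 0% and highest at 0.5 to 2.8%. The check thus sets 0% apart and does not by itself bear out the label of 20.9%. Of the genes specific to alpha cells, STE3 and SAG1 had means from 8.33 to 12.93, whereas the means of 5 genes specific to a cells lay between 5.43 and 8.46. STE3 and SAG1 were both lowest at 0%, and the part of that shift in the results was not tested. Replicate 4 at 2.8% and replicate 4 at 20.9% stood apart from the other arrays of their levels: over all genes the SD of the deviation from the level's mean was 0.322 and 0.344, against at most 0.224 in any other array. According to the labels, replicates 2 and 4 at 2.8% were centrifuged directly, whereas the other samples were first mixed with cold buffer, and cultures fed 2.8 or 20.9% oxygen received extra cells at the start of feeding to prevent oscillations. The 4 arrays at 0.5% came from 2 cultivations, as did the 4 at 2.8%, while the 6 at 1.0% came from at most 4, and which arrays share a cultivation is not given in the sources used here. The p-values therefore measure in part the spread between samples of the same chemostat.

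The widest comparison was between anaerobic and fully aerated cells. Of the 38 chaperone genes, 16 were higher at 20.9% than at 0% oxygen and 9 were lower. Over all genes tested, 21.9% were higher and 28.6% lower, so that 42.1% of the chaperone genes stood in the first class and 23.7% in the second. The genes that rose lay mostly in the cytosol: 8 of 13 in the Hsp70 system and 6 of 9 in the Hsp90 group, with MDJ1 in mitochondria and KAR2 in the ER. The genes that fell were ZUO1, SSZ1 and SSB2 of the ribosome-bound Hsp70 system, CPR7, the TRiC subunits TCP1 and CCT5, and LHS1, SCJ1 and JEM1 of the ER. The values of both levels did not overlap in 26 of the 38 genes (68.4%, against 50.7% of all genes), and among the called genes they overlapped in KAR2 and LHS1. Of the called genes, 9 changed at least 2-fold, all of them upwards, a count that was not made over all genes. With the arrays rescaled by cyclic loess, a smooth correction against signal, 17 rose (44.7%, against 26% of all genes) and 3 fell (7.89%, against 22.6%), the calls of CCT5, SCJ1 and JEM1 being those that remained. Levels are relative to the RNA of each array, and fewer cells making an RNA cannot be told apart from less of it per cell. The median log2 change of the 38 genes was -0.01, beside -0.07 over all genes. A gene was called by limma at an adjusted p (Benjamini-Hochberg) under 0.01 in a fit of all 5 levels, and all adjusted p-values of single genes below come from such fits over all genes. Over the 5 levels together, 25 of 38 chaperone genes differed (65.8%), close to the 60.0% of all genes.

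**Figure D1:**
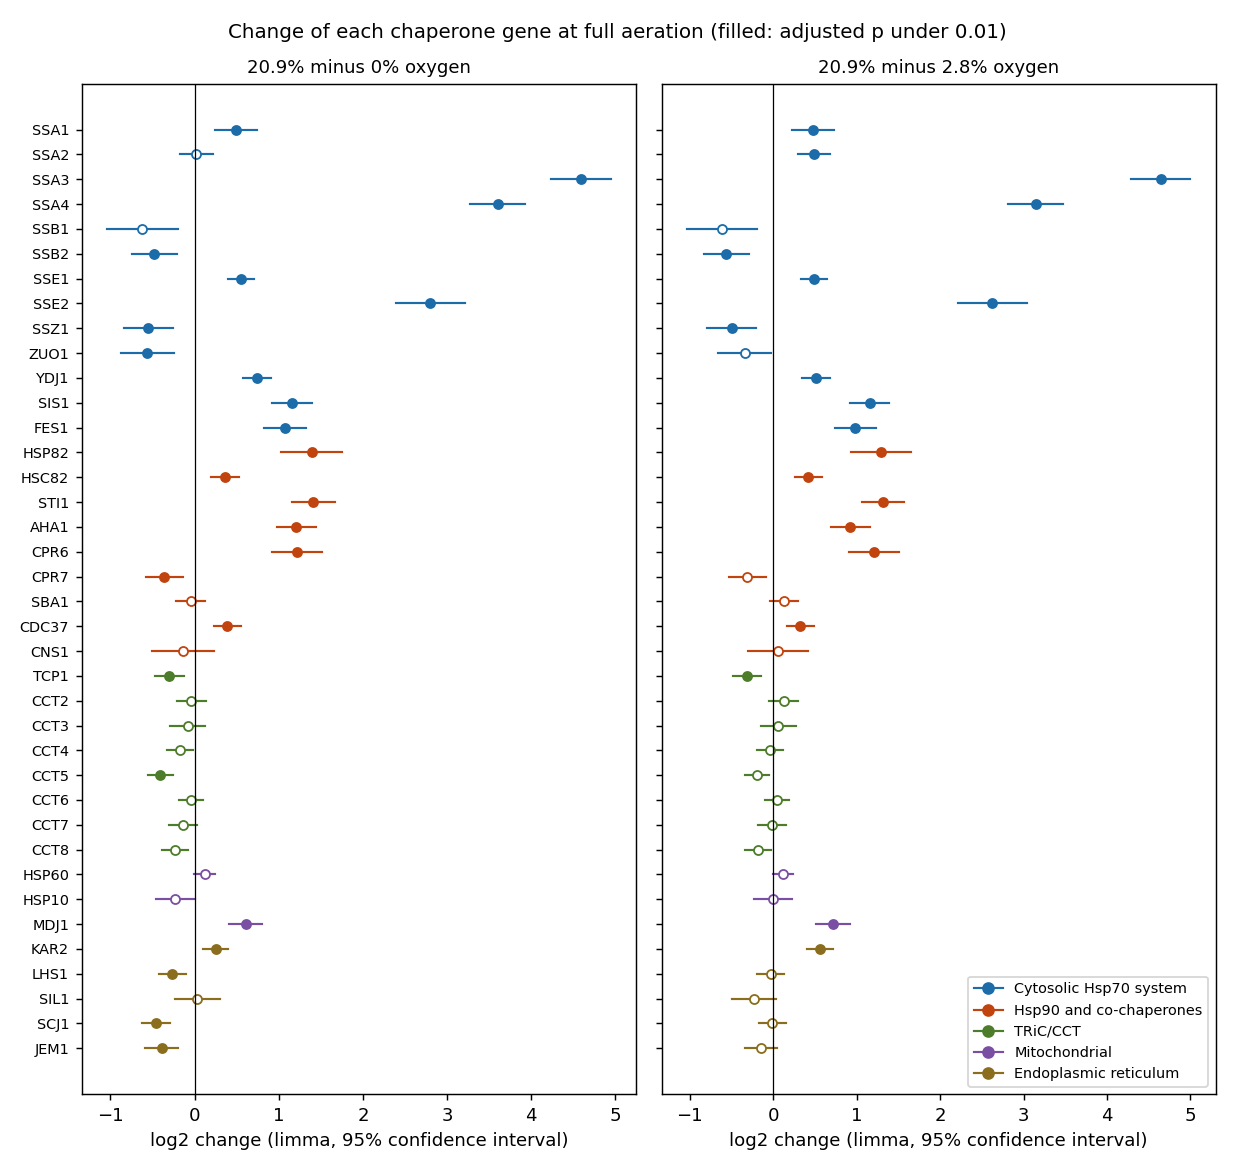
Log2 change of each of the 38 chaperone genes at 20.9% oxygen relative to 0% (left) and to 2.8% (right), with 95% confidence intervals from limma, coloured by group and filled where the adjusted p was under 0.01. SSA3, SSA4 and SSE2 lie far to the right of the others in both panels, and the TRiC/CCT subunits all lie within 0.41 of 0 in the left panel.

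SSA3 and SSA4, the stress-inducible cytosolic Hsp70 genes, showed the largest changes. The log2 level of SSA3 was 8.81, 8.06, 8.58 and 8.57 at 0% oxygen and 12.63, 13.18, 13.34 and 13.21 at 20.9%. At 0.5% it was 9.22, 8.98, 9.28 and 9.13, at 1.0% it ran from 8.51 through a median of 8.81 to 9.31, and at 2.8% it was 8.27, 8.49, 8.62 and 8.41. All the samples with restricted oxygen thus lay within little more than 1 log2 unit of each other, and the aerated samples stood more than 3 log2 units above every one of them. The change from 0 to 20.9% was 24.0-fold (log2 4.59 ± 0.17, SE, n = 4 and 4, limma adjusted p = 4.8e-15), and that from 2.8 to 20.9% was 24.99-fold (4.64 ± 0.17, limma adjusted p = 6.75e-14).

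SSA4 rose more than SSA3 from 0 to 0.5% oxygen, where SSA3 rose by 0.65 ± 0.17 on the log2 scale (limma adjusted p = 0.00471). The log2 level of SSA4 was 8.65, 8.63, 8.62 and 8.67 at 0%, 9.88, 10.10, 10.05 and 9.47 at 0.5%, and from 9.41 through 9.87 to 10.14 at 1.0%. At 2.8% it was 9.17, 9.23, 9.23 and 8.78, and at 20.9% it was 11.83, 12.37, 12.49 and 12.28. The 0% samples lay below all others, and those at 2.8% lay between them and the samples at 0.5%. SSA4 was 12.2-fold higher at 20.9% than at 0% (log2 3.60 ± 0.16, limma adjusted p = 5.6e-14) and 2.35-fold higher at 0.5% than at 0% (1.23 ± 0.16, limma adjusted p = 2.28e-06). SSE2, which encodes the less abundant of a pair of Hsp110 exchange factors for Hsp70, followed the same course, with 9.21, 9.47, 9.36 and 9.41 at 0%, 10.21, 10.44, 10.49 and 10.09 at 0.5% and 11.63, 12.27, 12.41 and 12.34 at 20.9%. It was 6.96-fold higher at 20.9% than at 0% (log2 2.80 ± 0.20, limma adjusted p = 1.25e-10). At 2.8% its samples read 9.69, 9.68, 10.01 and 8.77, the last being replicate 4, the array that stood apart.

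The genes for the abundant cytosolic Hsp70 machinery changed less. SSA1, an abundant cytosolic Hsp70 gene, had 13.28, 13.48, 13.49 and 13.68 at 0% and 13.88, 14.00, 13.96 and 14.06 at 20.9%, a 1.41-fold rise (log2 0.49 ± 0.12, limma adjusted p = 0.00146). Its close paralogue SSA2 did not differ detectably between these levels (0.02, 95% interval -0.17 to 0.21). SSE1, the major Hsp110, rose 1.47-fold (0.55 ± 0.07), and YDJ1, the main J-protein partner of the Ssa proteins, rose 1.67-fold (0.74 ± 0.08). SIS1, a J-protein of the Ssa cycle that is needed for viability, rose 2.24-fold, from 11.61, 11.85, 12.09 and 12.03 to 12.92, 13.09, 13.12 and 13.10. FES1, the exchange factor for cytosolic Ssa proteins, rose 2.11-fold, from 10.59, 10.77, 11.03 and 10.93 to 11.53, 11.82, 12.01 and 12.27. For SIS1 and FES1 the means of the levels from 0 to 2.8% spanned 0.18 and 0.16, so that the difference lay between 2.8% and 20.9%. The probe sets for SSA1 and SSA2 read near-identical genes, and cross-hybridisation between them was not tested.

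The ribosome-bound branch went the other way. SSB1 and SSB2 encode Hsp70 proteins that meet chains leaving the ribosome, and Ssz1p and Zuo1p form the ribosome-associated complex that assists them. SSZ1 had 11.15, 11.08, 11.01 and 11.24 at 0% and 10.72, 10.71, 10.78 and 10.06 at 20.9% (log2 -0.55 ± 0.14, limma adjusted p = 0.00176). ZUO1 had 12.12, 12.09, 12.10 and 12.12 at 0% and 12.06, 11.79, 11.46 and 10.88 at 20.9%, where it was the most variable of the 4 genes apart from SSB1 (-0.56 ± 0.15, limma adjusted p = 0.00316). SSB2 had 13.11, 13.12, 13.14 and 13.27 at 0% and 12.84, 12.91, 12.90 and 12.07 at 20.9% (-0.48 ± 0.13, limma adjusted p = 0.00328). The values of SSB1 were 13.55, 13.49, 13.54 and 13.66 against 13.35, 13.25, 13.26 and 11.90, a difference of -0.62 that missed the threshold (limma adjusted p = 0.0115). In all 4 genes the lowest aerated sample was replicate 4, which stood apart: without it the differences were -0.27 for SSB1, -0.27 for SSB2, -0.38 for SSZ1 and -0.34 for ZUO1, and all 4 passed the threshold (adjusted p = 0.00878, 0.00406, 0.00724 and 0.0075). Without replicate 4 at 0%, SSB2 missed it (adjusted p = 0.0121), and SSB2, SSZ1 and ZUO1 missed it after cyclic loess (0.0328, 0.0192 and 0.0288) and in a fit of the 2 levels alone (0.0486, 0.0154 and 0.0509).

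**Figure D2:**
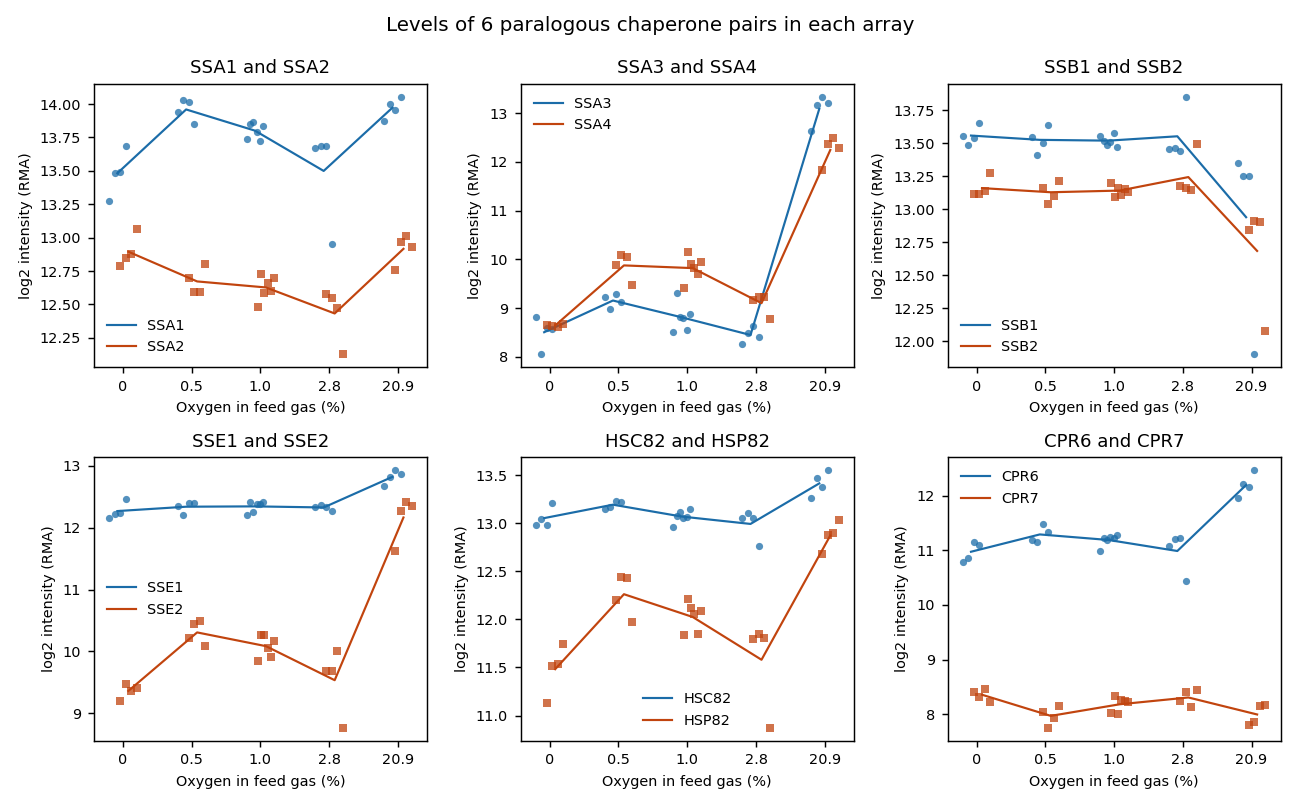
Log2 intensity (RMA) of 6 pairs of chaperone paralogues in each array against the oxygen in the feed gas, with 1 point per array and lines through the means of each level. SSA3, SSA4, SSE2, HSP82 and CPR6 climb steeply from 2.8 to 20.9% oxygen, while SSB1 and SSB2 are lower there and replicate 4 lies far below the other arrays.

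In the Hsp90 group, 6 of 9 genes rose from 0 to 20.9%. HSP82, the inducible Hsp90 gene, had 11.13, 11.51, 11.54 and 11.75 at 0%, 12.20, 12.45, 12.43 and 11.98 at 0.5%, 11.80, 11.85, 11.80 and 10.87 at 2.8% and 12.68, 12.88, 12.90 and 13.04 at 20.9%. At 1.0% it ran from 11.83 through 12.07 to 12.21. Every sample at 0.5% lay above every sample at 0% and at 2.8%, and the aerated samples lay above all others. HSP82 was 2.62-fold higher at 20.9% than at 0% (log2 1.39 ± 0.18, limma adjusted p = 7.85e-07). HSC82, the constitutive Hsp90 gene, was 1.28-fold higher (0.36 ± 0.08, limma adjusted p = 0.000449).

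STI1, AHA1 and CPR6, co-chaperones of Hsp90, rose about as much as HSP82. STI1, which passes clients from Hsp70 to Hsp90, rose from between 11.93 and 12.29 to 13.23, 13.48, 13.63 and 13.66 (2.66-fold, log2 1.41 ± 0.12). AHA1, the activator of the Hsp90 ATPase, rose from 11.26, 11.39, 11.45 and 11.59 to 12.48, 12.64, 12.64 and 12.76 (2.31-fold, 1.21 ± 0.11), and CPR6, a cyclophilin that binds Hsp90, rose 2.33-fold (1.22 ± 0.14). In each of these genes the lowest aerated sample lay above the highest sample at 0%. CDC37, which brings protein kinases to Hsp90, rose 1.31-fold (0.39 ± 0.08). CPR7, the other Hsp90 cyclophilin, went down from 8.41, 8.31, 8.47 and 8.23 to 7.80, 7.86, 8.16 and 8.17 (-0.36 ± 0.11, limma adjusted p = 0.00559). That call was lost without replicate 1 or 3 at 0% (adjusted p = 0.0168 and 0.0201) or replicate 1 or 2 at 20.9% (0.0247 and 0.0222). SBA1, the yeast p23, and CNS1, an essential co-chaperone, differed by -0.05 (95% interval -0.22 to 0.13; 0.13 after cyclic loess) and -0.14 (-0.50 to 0.23).

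The changes of TRiC/CCT were small. The log2 change of its 8 subunits from 0 to 20.9% ran from -0.41 to -0.04, and 2 passed the test, beside 28.6% of all genes that were lower. After cyclic loess the range was -0.23 to 0.14, with CCT2, CCT3, CCT6 and CCT7 above 0, so that the direction of those 4 depended on the scaling. CCT5 had 11.47, 11.49, 11.55 and 11.55 at 0% and 11.31, 11.05, 11.12 and 10.96 at 20.9% (log2 -0.41 ± 0.07, limma adjusted p = 4.65e-05). TCP1 had 10.83, 10.88, 10.88 and 11.06 against 10.51, 10.65, 10.60 and 10.69 (-0.30 ± 0.08, limma adjusted p = 0.00301), and missed the threshold without replicate 4 at 0% (0.0152) or replicate 1 at 20.9% (0.0118) and after cyclic loess (0.124). For the other 6 subunits the 95% intervals ran from -0.39 at the lowest to 0.13 at the highest. CCT8 was closest to the threshold (-0.24, limma adjusted p = 0.0103). Among the levels from 0 to 2.8%, no subunit passed the test in any comparison made.

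The 3 mitochondrial genes behaved differently from each other. HSP60 and HSP10 encode the ring and the lid of the mitochondrial chaperonin, and Mdj1p is a J-protein that works with the mitochondrial Hsp70 in folding. MDJ1 had 10.29, 10.36, 10.54 and 10.70 at 0%, 10.92, 11.00, 11.12 and 10.78 at 0.5%, 10.46, 10.34, 10.47 and 10.16 at 2.8% and 10.97, 11.12, 11.23 and 10.98 at 20.9%. At 1.0% it ran from 10.72 through 10.87 to 10.95. It was thus high at 0.5, 1.0 and 20.9% and low at 0 and 2.8%, with no overlap between the high and the low levels. It rose by 0.48 ± 0.10 on the log2 scale from 0 to 0.5% (limma adjusted p = 0.000379) and was 1.52-fold higher at 20.9% than at 0% (0.60 ± 0.10, limma adjusted p = 1.41e-05). HSP60 had 13.11, 13.22, 13.22 and 13.41 at 0% and 13.53, 13.55, 13.55 and 13.48 at 0.5%, a 1.22-fold rise (0.29 ± 0.06, limma adjusted p = 0.000644), but its level at 20.9% did not differ from that at 0% past the threshold (0.12, 95% interval -0.01 to 0.24). HSP10, its partner, did not follow: its change from 0 to 0.5% was -0.10 (-0.33 to 0.14), and its lowest value, 12.13, was in replicate 4 at 2.8%.

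In the ER, KAR2 rose and none of its partner genes did. KAR2 encodes the ER Hsp70 (BiP), Lhs1p and Sil1p are its exchange factors, and Scj1p and Jem1p are J-proteins of the ER lumen. KAR2 had 12.31, 12.40, 12.33 and 12.54 at 0%, 12.11, 12.09, 12.21 and 11.93 at 2.8% and 12.53, 12.62, 12.78 and 12.64 at 20.9%. The aerated samples lay above all those at 2.8% (1.47-fold, log2 0.56 ± 0.07, limma adjusted p = 3.06e-06) and overlapped with those at 0% in 1 sample (0.25 ± 0.07, limma adjusted p = 0.00596). The second call was lost without any one of replicates 1, 2 and 3 at 0% (adjusted p = 0.0231, 0.0129 and 0.0200) or 3 and 4 at 20.9% (0.0268 and 0.0111). SCJ1 was highest without oxygen, with 9.95, 9.87, 9.87 and 9.89, whereas its values at all other levels lay between 9.30 and 9.68. SCJ1 decreased by 0.45 (log2) from 0 to 0.5% (limma adjusted p = 0.000106), and from there its means differed by less than the spread between replicates. LHS1 fell likewise, from 8.70, 8.72, 8.57 and 8.79 to 8.31, 8.19, 8.41 and 8.40 (-0.37 ± 0.08, limma adjusted p = 0.000572). JEM1 was lower at 20.9% than at 0% (-0.39 ± 0.09, limma adjusted p = 0.00134), and SIL1 differed by 0.03 (95% interval -0.24 to 0.30). LHS1 between 0 and 20.9% (-0.26 ± 0.08, limma adjusted p = 0.00493) lost its call without replicate 1, 2 or 4 at 0% (0.0113, 0.0140 and 0.0196) or replicate 3 or 4 at 20.9% (0.0150 and 0.0247).

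**Figure D3:**
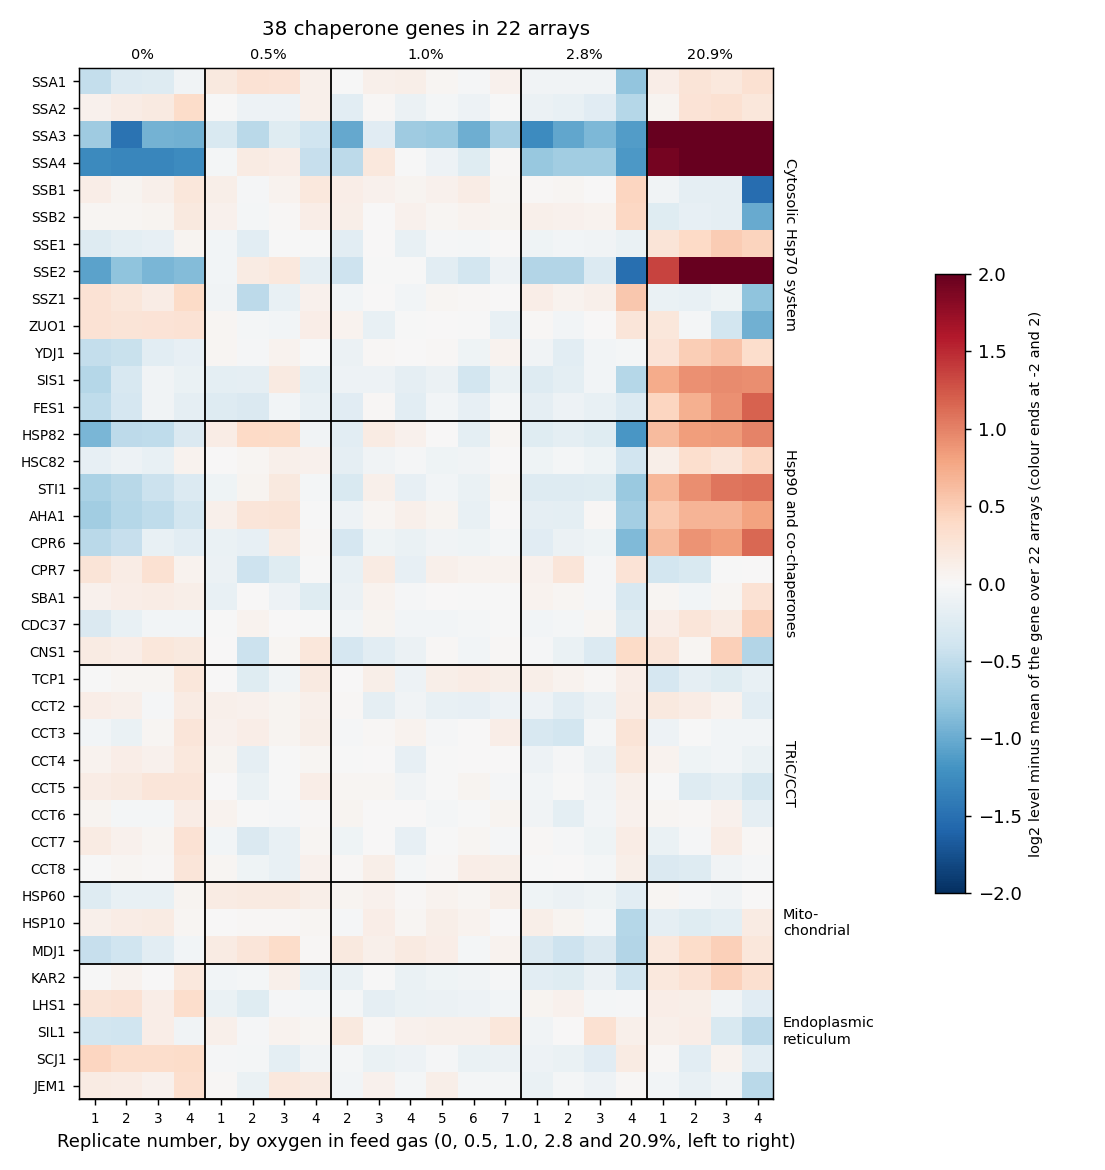
Log2 level of the 38 chaperone genes in each of the 22 arrays, shown as the difference from the mean of the gene over all arrays, with arrays in columns by oxygen level and replicate and genes in rows by group. The red block at 20.9% spans the inducible Hsp70, J-protein and Hsp90 genes, and replicate 4 at 2.8% and at 20.9% can be seen to differ from their neighbours.

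A first step of the response came with as little as 0.5% oxygen. Relative to 0%, 10 of 38 chaperone genes were higher at 0.5% (26.3%, against 13.3% of all genes) and 3 were lower (7.89%, against 13.6%). Those that rose were SSA1, SSA3, SSA4, SSE2 and YDJ1 of the Hsp70 system, HSP82, STI1 and AHA1 of the Hsp90 group, and HSP60 and MDJ1 in mitochondria. Those that fell were CPR7, LHS1 and SCJ1. The values at both levels did not overlap in 21 of the 38 genes (55.3%, against 39.3% of all genes), all 13 called genes among them. With array weights, which give less influence to arrays that fit the model poorly, 7 were lower (18.4%, against 24.1% of all genes), and without both arrays that stood apart 6 were (15.8%, against 19.2%). In the weighted fit replicate 1 at 0.5% had a weight of 7.32, and replicates 2, 3 and 4 there had 0.503, 1.12 and 0.675. With 2 samples each at 0.5 and 2.8%, as many as there were cultivations, 6 were higher (15.8%, against 9.69%), and SSA3, YDJ1, STI1, HSP60 and CPR7 lost their calls (median adjusted p over all picks of 0.0378, 0.0207, 0.0128, 0.0108 and 0.0338). SSA4 alone passed 2-fold, followed by SSE2 (1.93-fold, log2 0.94 ± 0.20), HSP82 (1.72-fold, 0.78 ± 0.18) and AHA1 (1.61-fold, 0.69 ± 0.11). SIS1 and FES1, which had risen at full aeration, differed here by 0.18 (95% interval -0.06 to 0.42) and 0.08 (-0.16 to 0.33). SSA1 (0.48 ± 0.12) lost its call without replicate 1 at 0% or replicate 2 or 3 at 0.5% (adjusted p = 0.0176, 0.0123 and 0.0124), SSA3 (0.65 ± 0.17) without replicate 2 at 0% or replicate 1 or 3 at 0.5% (0.0249, 0.0142 and 0.0173), STI1 (0.50 ± 0.12) without replicate 1 at 0% or replicate 3 at 0.5% (0.0112 and 0.0116), and YDJ1 (0.34 ± 0.08) without replicate 1 at 0% (0.0105). CPR7 (-0.39 ± 0.11) lost it without replicate 1, 2 or 3 at 0% or replicate 2 or 3 at 0.5% (0.0192, 0.0119, 0.0225, 0.0303 and 0.0189).

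The second step came between 2.8 and 20.9%. Here 17 of 38 chaperone genes were higher with full aeration (44.7%, against 18.6% of all genes) and 3 were lower (7.89%, against 21.9%). After cyclic loess the counts were 20 (52.6%, against 21.4% of all genes) and 0 (against 17.3%). The 17 were SSA1, SSA2, SSA3, SSA4, SSE1, SSE2, YDJ1, SIS1 and FES1, the Hsp90 group genes HSP82, HSC82, STI1, AHA1, CPR6 and CDC37, and MDJ1 and KAR2. The values of both levels did not overlap in 22 of the 38 genes (57.9%, against 39.5% of all genes), all 17 among them. The change in SSA4 was 8.85-fold (log2 3.15 ± 0.16), smaller than the 12.2-fold change against 0% (3.60 ± 0.16). The changes in SSE2 (6.17-fold, 2.63 ± 0.20), STI1 (2.48-fold), HSP82 (2.45-fold), CPR6 (2.31-fold) and SIS1 (2.23-fold) were of about the size seen against 0%. This comparison and that of 0 with 20.9% share the aerated samples. SSA2, which did not differ between 0 and 20.9%, rose by 0.48 ± 0.09 on the log2 scale (limma adjusted p = 0.000187), from 12.58, 12.55, 12.48 and 12.13 to 12.76, 12.97, 13.01 and 12.93.

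The 3 genes that fell were SSB2 (-0.56 ± 0.13, limma adjusted p = 0.00115), SSZ1 (-0.50 ± 0.14, limma adjusted p = 0.00492) and TCP1 (-0.31 ± 0.08, limma adjusted p = 0.00287). Replicate 4 at 2.8% was at the high end in SSB1 (13.86), SSB2 (13.50) and SSZ1 (11.40), while replicate 4 at 20.9% was at the low end. SSZ1 lost its call without either of them (adjusted p = 0.0236 and 0.0218), TCP1 without replicate 1 at 20.9% (0.0105), and all 3 genes without both directly centrifuged samples (0.0190 for SSB2, 0.0488 for SSZ1 and 0.0266 for TCP1). Without replicate 1 at 20.9%, the count of genes that fell was 5. Replicate 4 at 2.8% was also low in genes that rose, among them SSA1, with 12.96 against 13.67 to 13.69 in the other 3 samples, and the rise in SSA1 was 0.47 with it and 0.29 without it. Without both directly centrifuged samples, 15 genes were higher (39.5%, against 13.2% of all genes): SSA1 (0.29, adjusted p = 0.0139) and CDC37 (0.26, adjusted p = 0.0257) lost their calls. Both also lost them without the arrays that stood apart, where the rise in CDC37 was 0.19, against 0.33 in all arrays (adjusted p = 0.0106 for SSA1 and 0.0184 for CDC37). The other directly centrifuged sample, replicate 2, had 13.69 for SSA1 and 11.85 for HSP82 and lay with the rest.

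Between the levels with restricted oxygen, the fit with equal weights called few chaperone genes. From 0.5 to 1.0% none passed the test in either direction, beside 0.110% of all genes higher and 0.0551% lower. An unadjusted p under 0.05 in limma was found for 3 chaperone genes. That count was not made over all genes, so it cannot show whether the chaperone genes changed more than others. From 0.5 to 2.8%, SSA3, SSA4, HSP60 and MDJ1 fell (10.5% of the chaperone genes, against 3.08% of all genes), and none was higher (2.59% of all genes). The decrease was 0.71 ± 0.17 in SSA3, 0.78 ± 0.16 in SSA4, 0.29 ± 0.06 in HSP60 and 0.60 ± 0.10 in MDJ1 on the log2 scale. From 1.0 to 2.8%, SSA4 (-0.72 ± 0.14, limma adjusted p = 0.00429) and MDJ1 (-0.50 ± 0.09, limma adjusted p = 0.00110) fell (5.26%, against 0.936% of all genes), and none was higher (0.771% of all genes). HSP82 and SSE2 were close to the threshold between 0.5 and 2.8% (-0.68 and -0.77, limma adjusted p = 0.0128 and 0.0127) and their values did not overlap there. With array weights more genes were called at these levels, among all genes too: 12 lower and 3 higher from 0.5 to 2.8% (31.6% and 7.89%, against 15.9% and 16% of all genes), 5 lower and 1 higher from 1.0 to 2.8% (13.2% and 2.63%, against 7.91% and 7.85%), and 1 lower and 2 higher from 0.5 to 1.0% (2.63% and 5.26%, against 10.7% and 9.69%). Replicate 1 at 0.5% had the largest weight of all arrays in that fit (7.32), so that the level at 0.5% leaned on it.

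The calls of the fit with equal weights changed with the samples used. Without the 2 directly centrifuged samples none of the 4 genes passed between 0.5 and 2.8%, with adjusted p of 0.0573 for SSA3, 0.0348 for SSA4, 0.0484 for HSP60 and 0.0122 for MDJ1, and neither SSA4 nor MDJ1 passed between 1.0 and 2.8% (0.0956 and 0.0671). The decreases then were 0.71 in SSA3, 0.68 in SSA4, 0.25 in HSP60 and 0.49 in MDJ1 from 0.5 to 2.8%, and 0.62 in SSA4 and 0.40 in MDJ1 from 1.0 to 2.8%. Leaving out 1 array, MDJ1 kept both calls, whereas SSA4 between 0.5 and 2.8% lost its call without replicate 2 or 3 at 0.5% (0.0123 and 0.0138) and HSP60 without replicate 1, 2 or 3 at 0.5% (0.0108, 0.0107 and 0.0130), which left 2, 1 and 1 genes called without replicates 1, 2 and 3. SSA4 between 1.0 and 2.8% lost it without replicate 3, 4, 5 or 7 at 1.0% or replicate 1 or 4 at 2.8% (adjusted p of at most 0.0221), which left MDJ1 alone. SSA3 between 0.5 and 2.8% lost it in 14 of 22 such fits (without any array at 0.5 or 2.8%, replicate 3 or 4 at 0%, 4, 5 or 7 at 1.0%, or 2 at 20.9%), with adjusted p of at most 0.0342.

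**Figure D4:**
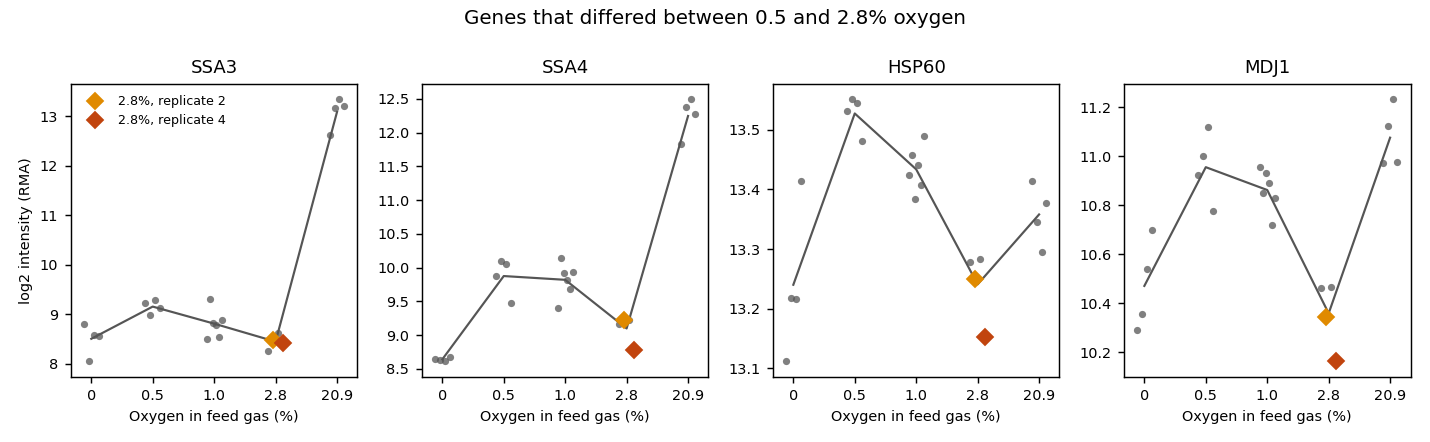
Log2 intensity (RMA) of SSA3, SSA4, HSP60 and MDJ1 in each array against the oxygen in the feed gas, with lines through the means and diamonds for the 2 directly centrifuged samples at 2.8%. In HSP60 and MDJ1 replicate 4 is the lowest sample at 2.8%, and all samples at 2.8% lie below those at 0.5%.

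Taken over the 5 levels, the means of 19 chaperone genes went down from 0.5 through 1.0 to 2.8% (50% of them, beside 26.8% of all genes). For 13 genes the mean went up from 0 to 0.5%, down to 2.8% and was highest at 20.9%, a course seen in 34.2% of the chaperone genes and 7.05% of all genes. These 13 were SSA1, SSA3, SSA4, SSE2, YDJ1, SIS1, HSP82, HSC82, STI1, AHA1, CPR6, CDC37 and MDJ1. This is a description of means, and most of the steps among the restricted levels did not pass the test by themselves. In all of the 13 but SSA3 and YDJ1 the lowest sample at 2.8% was replicate 4, which stood apart, so the fall to 2.8% leans in part on it. The other samples at 2.8% read 13.05, 13.10 and 13.06 in HSC82, beside a mean of 13.07 at 1.0%. In CDC37 they read 10.06, 10.07 and 10.15, beside 10.08. The courses were not counted without that array. The highest mean was at 20.9% in 17 genes (44.7%, against 30.5% of all genes) and at 0% in 16 (42.1%, against 34.6%), the latter including 6 of the 8 TRiC/CCT subunits. After cyclic loess it was at 20.9% in 21 genes and at 0% in 11 (28.9%, against 29% of all genes), with 2 TRiC/CCT subunits among the 11 and 3 among the 21. A peak or a dip at the 3 restricted levels, relative to both 0 and 20.9%, was tested as well. None of the chaperone genes had a peak, against 5.29% of all genes. One had a dip, against 2.81% of all genes: SSA2 was lower at 0.5 to 2.8% by 0.32 than at 0% (limma adjusted p = 0.00147) and by 0.34 than at 20.9% (limma adjusted p = 0.000544). That dip was not called without replicate 4 at 0%, and 2 genes had one without replicate 3 at 0.5% or replicate 3 at 2.8%.

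Whether paralogues responded differently was tested on the difference of both log2 levels within each array, in 6 pairs and for 0 and 2.8% against 20.9% (12 tests, exact permutation test, two-sided). With 4 arrays a level, the smallest possible p is 0.0286. Here that p became 0.0381 after adjustment over the 12 tests. From 0 to 20.9%, 5 of 6 pairs reached that value. SSE2 rose by 2.25 more than SSE1, CPR6 by 1.58 more than CPR7, HSP82 by 1.03 more than HSC82 and SSA1 by 0.47 more than SSA2, while SSA4 rose by 0.98 less than SSA3. From 2.8 to 20.9% the same held for SSE2 (2.13 more), CPR6 (1.52 more), HSP82 (0.87 more) and SSA4 (1.50 less), but the difference between SSA1 and SSA2 was -0.01 ± 0.09 (SE, adjusted p = 0.943 in the exact test). The difference between SSB1 and SSB2 did not pass the threshold in either comparison (-0.14 ± 0.15 and -0.05 ± 0.15). For SSB1 and SSB2 the within-array difference was between 0.37 and 0.44 in the 0% samples, but replicate 4 at 20.9% had -0.17, where SSB1 was below SSB2. Probe sets differ in how they translate RNA into signal, and SSA1 lay in the top 1% of genes by mean level. Cross-hybridisation between paralogues was not tested in any of the 6 pairs.

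Further genes of the same compartments and pathways were set beside these. The mitochondrial Hsp70 system had 1 of 9 genes higher at 20.9% than at 0% (11.1%, against 21.9% of all genes) and 5 lower (55.6%, against 28.6%). The higher one was ECM10, with 5.54, 5.68, 5.85 and 5.46 at 0% and 6.45, 7.49, 6.90 and 7.00 at 20.9%, the same direction as MDJ1. Its signal was dim, far below the array medians of 9.036 to 9.099. It lay between 6.2 and 6.5 at 0.5% and between 6.3 and 6.5 at 2.8%, without the low level that MDJ1 had at 2.8%. The lower ones included the import motor genes PAM18 (-0.92 ± 0.10, limma adjusted p = 6.6e-08) and PAM16 (-0.59 ± 0.07, limma adjusted p = 5.8e-07) and the exchange factor gene MGE1 (-0.71 ± 0.08, limma adjusted p = 3.4e-07), so that they went the opposite way to MDJ1, while the Hsp70 gene SSC1 itself differed by 0.22 (limma adjusted p = 0.019). Of 13 other J-protein genes, 4 rose and 4 fell (30.8% each). JID1, a mitochondrial J-protein, changed at the first step, from between 6.65 and 7.06 at 0% to between 8.11 and 8.60 at 0.5% (log2 1.66, limma adjusted p = 2.1e-10), and stayed between 8.14 and 8.63 at 2.8 and 20.9%. APJ1, which encodes another J-protein, rose by 1.22 from 2.8 to 20.9% (limma adjusted p = 3.9e-08), and SEC63, the J-protein of the ER translocon, was lower by 0.55 at 0.5% than at 0% (limma adjusted p = 7.8e-05). Of 6 further Hsp90 cofactors 1 rose (16.7%), and of 11 prefoldin and nascent chain genes 3 fell (27.3%, near the share of all genes) and none rose.

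Among 5 genes for regulators, none rose from 0 to 20.9% (against 21.9% of all genes) and 2 fell (40%, against 28.6%). From 2.8 to 20.9%, 1 rose (20%, against 18.6% of all genes) and 2 fell (40%, against 21.9%). The one that rose was MSN2, a general stress transcription factor, from 9.07, 9.11, 8.90 and 8.93 at 2.8% to 9.28, 9.33, 9.46 and 9.29 at 20.9% (log2 0.34 ± 0.07, limma adjusted p = 0.000463). HSF1 was higher at 0.5% than at 0% (10.48, 10.84, 10.62 and 10.41 against 9.99, 10.11, 10.15 and 9.88, log2 0.55, limma adjusted p = 0.0042) and lower at 2.8 than at 0.5% (-0.66 ± 0.14, limma adjusted p = 0.00424). At 1.0% it read 10.35, 9.91, 10.43, 10.02, 10.02 and 9.87, which overlaps with 0%, and at 2.8% it read 9.57, 9.84, 10.34 and 9.95. Whether the HSF1 calls hold with arrays left out was not tested. HSF1 did not differ past the threshold between 0 and 20.9% (0.26, limma adjusted p = 0.12). MSN4, the paralogue of MSN2, went down from 9.93, 9.89, 9.98 and 9.97 at 0% to 8.56, 8.50, 8.63 and 8.56 at 20.9% (-1.38 ± 0.10, limma adjusted p = 3.7e-10). HAC1, the factor of the unfolded protein response, was lower by 1.10 at 20.9% (limma adjusted p = 9.8e-06), and IRE1, its activator, differed by -0.11 (limma adjusted p = 0.20). Hsf1p and Hac1p are controlled largely after transcription, by modification and by splicing, so that these levels do not give the activity of either factor.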

How the data were processed

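The deposited values are log2 intensities from GeneChip Yeast Genome 2.0 arrays, which the authors obtained with Robust Multichip Average (RMA), which corrects the background, gives all arrays the same distribution and combines the probes of a set. No further normalisation was applied. Of 5716 probe sets, 5498 name 1 gene and 218 name none, and 47 genes have several sets. For those genes a set that was specific by its name was preferred, and among equal sets the one with the highest mean was used. The second set of SSB1, which is not specific, was left out. Array medians lay between 9.036 and 9.099, no 2 arrays were identical, and precision is limited by the number of arrays. Symbols came from the RefSeq gene table of S288C, with 12 updated.

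Arrays were grouped by their labels. The authors had removed 1 outlying sample at 1.0% oxygen, which was not used here. A linear model with the 5 levels was fitted to 5449 genes with limma 3.58.1 (lmFit, eBayes) in R 4.3.3, as in the study's methods, and p-values were adjusted by the Benjamini-Hochberg procedure over all genes, with 0.01 as threshold. The fit was tested on simulated data. Errors are SE of the fit, and fold changes are 2 to the power of the log2 change. Paralogues were compared by an exact permutation test (threshold 0.05). All 38 members could be named, and those past the threshold were described first. The members and lists were chosen with earlier results of these data known. Alternatives were other normalisations, filters, fits and subsets of arrays, and each array was left out in turn. The fit without both arrays that stood apart was added after seeing the data. Figures were drawn with Matplotlib 3.10.9.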

Additional observations from a re-analysis of the deposited data

Results flagged for a closer look

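Within each oxygen level, the highest and the lowest sample of every chaperone gene were compared with the gap that Dixon's test allows at 95%. Of 190 groups of samples, 19 held a value beyond it (10.0%), where chance gives about 1 in 20. Of the 19, 8 came from replicate 4 at 2.8% oxygen and 4 from replicate 4 at 20.9%, the 2 arrays that stood apart over all genes. Genes of 1 array are not independent of each other.

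In replicate 4 at 2.8% oxygen, SSA1 (12.96, the nearest other sample 13.67), SSA4 (8.78, nearest 9.17), HSP82 (10.87, nearest 11.80), HSC82 (12.76, nearest 13.05) and STI1 (11.82, nearest 12.31) were low. SSB1 (13.86, nearest 13.46), SSB2 (13.50, nearest 13.18) and SSZ1 (11.40, nearest 10.99) were high in it. In replicate 4 at 20.9% the ribosome-bound genes were low instead, with SSB1 at 11.90 (nearest 13.25), SSB2 at 12.07 (nearest 12.84) and SSZ1 at 10.06 (nearest 10.71), and HSP10 was high at 12.87 (nearest 12.53). The means of SSB1, SSB2 and SSZ1 at both levels therefore lean on these arrays, and the part of sample handling was not tested: replicate 4 at 2.8% was centrifuged directly, replicate 2 was too and does not stand apart, and replicate 4 at 20.9% was collected in cold buffer.

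The remaining 7 values were spread over 6 arrays. SSB2 (13.27, nearest 13.14) and CCT8 (11.34, nearest 11.13) were high in replicate 4 at 0%. SIS1 was high in replicate 3 at 0.5% (12.36, nearest 11.99), low in replicate 6 at 1.0% (11.81, nearest 11.99) and low in replicate 1 at 20.9% (12.92, nearest 13.09). CPR6 was low in replicate 2 at 1.0% (10.98, nearest 11.18) and CCT4 in replicate 4 at 1.0% (11.68, nearest 11.84).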

How the results depend on the processing

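Of 64 calls of single genes, none changed direction under any alternative. The mean of all probe sets, leaving out the dimmest 25% of genes, and trended, robust limma lost none of them, median centring 1, array weights 2, the fit without both arrays that stood apart 6, cyclic loess and the fit without directly centrifuged samples 11 each, 2 samples each at 0.5 and 2.8% 15, and fits of the 2 levels compared 21. Replicate numbers did not pair the samples (same-numbered arrays correlated at a median of 0.05 in their deviations, from -0.60 to 0.58). With the replicate block 13 calls were lost, and the counts of lower genes were 5 from 0 to 20.9%, 2 from 0.5 to 2.8% and 0 from 1.0 to 2.8%. With cyclic loess, 3 genes were lower from 0 to 20.9% and 0 from 2.8 to 20.9%. With array weights, 7 were lower from 0 to 0.5%, 2 higher and 1 lower from 0.5 to 1.0%, 3 higher and 12 lower from 0.5 to 2.8%, 1 higher and 5 lower from 1.0 to 2.8%, and 2 dipped. Fitting only the levels compared left 2 lower from 0 to 20.9%, 0 from 2.8 to 20.9% and 2 from 0.5 to 2.8%. Without the directly centrifuged samples the counts of lower genes from 2.8 to 20.9%, 0.5 to 2.8% and 1.0 to 2.8% were 0. With 2 samples each at 0.5 and 2.8% (median of 36 picks), 6 were higher from 0 to 0.5%, 1 lower from 2.8 to 20.9%, 0 lower from 0.5 to 2.8% and 0 from 1.0 to 2.8%. Without both arrays that stood apart, 6 were lower from 0 to 0.5% and 1 from 1.0 to 2.8%.

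Leaving out each array gave 23 to 26 genes for the 5 levels together, 15 to 16 higher and 6 to 12 lower from 0 to 20.9%, 7 to 10 higher and 2 to 4 lower from 0 to 0.5%, 17 to 17 higher and 2 to 5 lower from 2.8 to 20.9%, 1 to 5 lower from 0.5 to 2.8%, 1 to 2 lower from 1.0 to 2.8% and 0 to 2 dips. For SSB1 less SSB2 it gave -0.23 to 0.0002 from 0 to 20.9%, the first without replicate 1 at 20.9% (adjusted p = 0.0343) and the second without replicate 4, and -0.14 to 0.0894 from 2.8 to 20.9%. For SSA1 less SSA2 it gave -0.0904 to 0.0366 from 2.8 to 20.9%, above 0 without replicate 2 or 3 at 2.8% or replicate 3 at 20.9%. SSB1 less SSB2 was 0.0392 with the mean of all probe sets, and SSA1 less SSA2 was 0.0086 with cyclic loess. Without the directly centrifuged samples, SSA4 less SSA3 (-1.60), SSE2 less SSE1 (1.83), HSP82 less HSC82 (0.71) and CPR6 less CPR7 (1.23) had an adjusted p of 0.100. Fewer arrays at 2.8% limit how small the p of the exact test can be there. Depth in the sense of reads does not apply to arrays; the 2 cultivations at 0.5 and 2.8% limit what small differences there can show.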
